A study of Mus musculus with 21 samples.

Results

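The transcription factor ATF4 and 9 genes of its stress and amino acid response were followed in mouse macrophages that lack the mannose receptor: Atf4, Atf5, Ddit3, Trib3, Chac1, Asns, Sesn2, Psat1, Phgdh and Slc7a5. They were chosen with earlier results of these data known, and picked out by symbol through the Ensembl identifier of each row. They make up 10 of the 23250 genes in the gene table. All 10 were found, and 9 passed the filter on low counts. Chac1, with 0 to 30 counts per library, did not pass and was not tested.

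The cells were bone-marrow-derived macrophages from mice of C57BL/6J background, grown for 7 days with supernatant of a cell line that makes GM-CSF, a growth factor that turns marrow precursors into macrophage-like and dendritic-like cells. Every group, controls included, lacks the mannose receptor (Mrc1). One group was untreated at 0 h, 3 groups were given FcMR, the outer portion of the mannose receptor fused to the Fc region of human IgG1, and 3 were given an isotype control protein; both were applied for 4, 12 or 24 h. Each group holds 3 libraries, and the study asked how soluble mannose receptor acts on macrophages. No label says whether libraries of a group came from separate mice or cultures, so p-values measure only the spread between these libraries, which may be technical. There was no untreated group at 4, 12 or 24 h, so hours in culture and exposure to the isotype protein cannot be told apart in the comparisons with untreated cells.

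ATF4 is the central factor of the integrated stress response. Kinases that sense amino acid shortage, unfolded proteins, viral RNA or haem deficiency phosphorylate the initiation factor eIF2, general translation slows, and translation of the Atf4 mRNA rises. ATF4 protein then binds CARE elements, composite sites for C/EBP and ATF factors, and raises genes for amino acid synthesis and uptake, for other transcription factors and for feedback inhibitors. Because Atf4 is controlled largely at translation, its mRNA level is not a measure of ATF4 protein. In macrophages, serine synthesis and amino acid uptake are known to support activation.

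Upstream sequences of the members were taken from RefSeq (GRCm38.p6), which gave a promoter for 9 of the 10 genes. No promoter sequence was found for Slc7a5. The letters TGATGNAA, a form of the CARE element, were searched on both strands in the 250 bases before each start. They occur in Asns and Chac1, and in 3.45% of the 32851 promoters of that length. Trib3 holds a match from base 15 after its RefSeq start, outside the bases searched. GENCODE M21 starts Trib3 farther downstream, at chr2:152344032, so the match lies before that start. For bases after the RefSeq start, no share over all promoters was taken and no result is given for the other members. These 3 sequences are shown because they carry the match, in capitals, the last 2 as its reverse complement. The Asns site lies in an exon of GENCODE M21 that starts farther upstream, and the Chac1 window ends where an annotated exon begins.

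Asns site (chr6:7693214-7693243, minus strand): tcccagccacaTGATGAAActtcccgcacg
Trib3 site (chr2:152344028-152344057, minus strand): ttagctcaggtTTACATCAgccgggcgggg
Chac1 window (chr2:119350992-119351228, plus strand): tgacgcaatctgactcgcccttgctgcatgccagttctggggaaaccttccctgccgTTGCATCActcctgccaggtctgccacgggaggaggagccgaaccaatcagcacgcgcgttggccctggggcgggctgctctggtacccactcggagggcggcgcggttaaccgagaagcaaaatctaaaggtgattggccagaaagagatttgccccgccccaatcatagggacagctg

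The windows of Phgdh and Psat1 are shown because these neighbouring serine synthesis steps differed from isotype in opposite directions with FcMR at 24 h. Neither holds TGATGNAA in the 250 bases searched. Capitals mark CCAAT, a short promoter motif that 7 members and 33.8% of all promoters hold on one strand or the other. The Phgdh window stops at an annotated exon, and the Psat1 window lies inside the span that GENCODE M21 gives the gene, outside its exons. Phgdh holds a further CCAAT from 23 bases before its start. The end of the window cuts that site, so it is not in capitals.

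Phgdh window (chr3:98339991-98340219, minus strand): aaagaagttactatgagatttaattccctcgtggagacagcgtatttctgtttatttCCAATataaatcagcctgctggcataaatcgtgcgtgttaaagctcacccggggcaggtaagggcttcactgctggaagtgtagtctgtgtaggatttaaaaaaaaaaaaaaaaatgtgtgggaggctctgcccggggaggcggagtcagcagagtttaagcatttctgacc
Psat1 window (chr19:15925060-15925309, minus strand): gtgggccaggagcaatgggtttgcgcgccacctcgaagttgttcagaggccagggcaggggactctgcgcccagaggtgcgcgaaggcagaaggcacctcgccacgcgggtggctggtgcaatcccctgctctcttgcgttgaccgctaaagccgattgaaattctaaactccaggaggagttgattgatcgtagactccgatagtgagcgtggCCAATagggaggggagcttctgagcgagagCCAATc

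Library totals ran from 5532225 to 66729533 counts, and levels are given as CPM, which are counts scaled to a common library total with TMM. Mrc1 had 0 to 11 counts per library. The 10 macrophage markers examined, among them Csf1r, Adgre1 and Cd68, were above 0 in every group, at a summed 21727 to 36943 CPM. Libraries differed in how they represented GC-rich transcripts: genes in the top 10% of GC content, less those in the bottom 10%, had mean log2 levels (each gene relative to its mean over libraries) that ran from -1.59 to 0.82. Within groups, isotype 4 h replicate 3, FcMR 12 h replicate 1 and FcMR 24 h replicate 2 stood apart on this measure. Isotype 4 h replicate 3 and FcMR 12 h replicate 1 also carry library numbers in their titles that are out of the order of the groups.

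Untreated cells held the highest mean level of 9 of the 10 members, Ddit3 being the exception. Between untreated cells and cells given the isotype protein, 8 of the 9 tested genes fell by 4 h, 7 by 12 h and 8 by 24 h, and none rose (edgeR, adjusted p under 0.05). At 12 h, 8 fell and Ddit3 rose with limma voom, with a GC correction, or without isotype 4 h replicate 3 and FcMR 12 h replicate 1. Over all 13468 genes tested, 35.6%, 41.6% and 42.2% were called at these times: 20.4%, 22% and 21.3% were higher and 15.2%, 19.6% and 20.9% lower. The median log2 change of the 9 genes was -1.24, -1.04 and -1.39, beside -0.00034, 0.033 and -0.037 over all genes. FcMR against isotype gave no called member at 4 h or 12 h and 3 at 24 h: Asns and Phgdh higher and Psat1 lower. At 4 h and 12 h, 1 and 2 genes had an unadjusted p under 0.05, DESeq2 called 1 and 1, limma voom 0 and 2, and limma on the deposited normalized table none. With the GC correction edgeR called 1 at 4 h, Slc7a5, and 4 at 12 h, namely Atf4, Asns, Phgdh and Slc7a5, all higher. Without isotype 4 h replicate 3 it called 3 at 4 h, namely Atf4, Phgdh and Slc7a5, all higher. The share of all genes called was 17.7% at 4 h, split into 8.62% higher and 9.13% lower. It was 16.1% at 12 h, split into 8.61% and 7.49%, and 20.9% at 24 h, split into 11.4% and 9.44%. The members' medians of 0.019, 0.14 and 0.036 stood beside -0.073, -0.017 and 0.0064 over all genes.

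**Figure D1:**
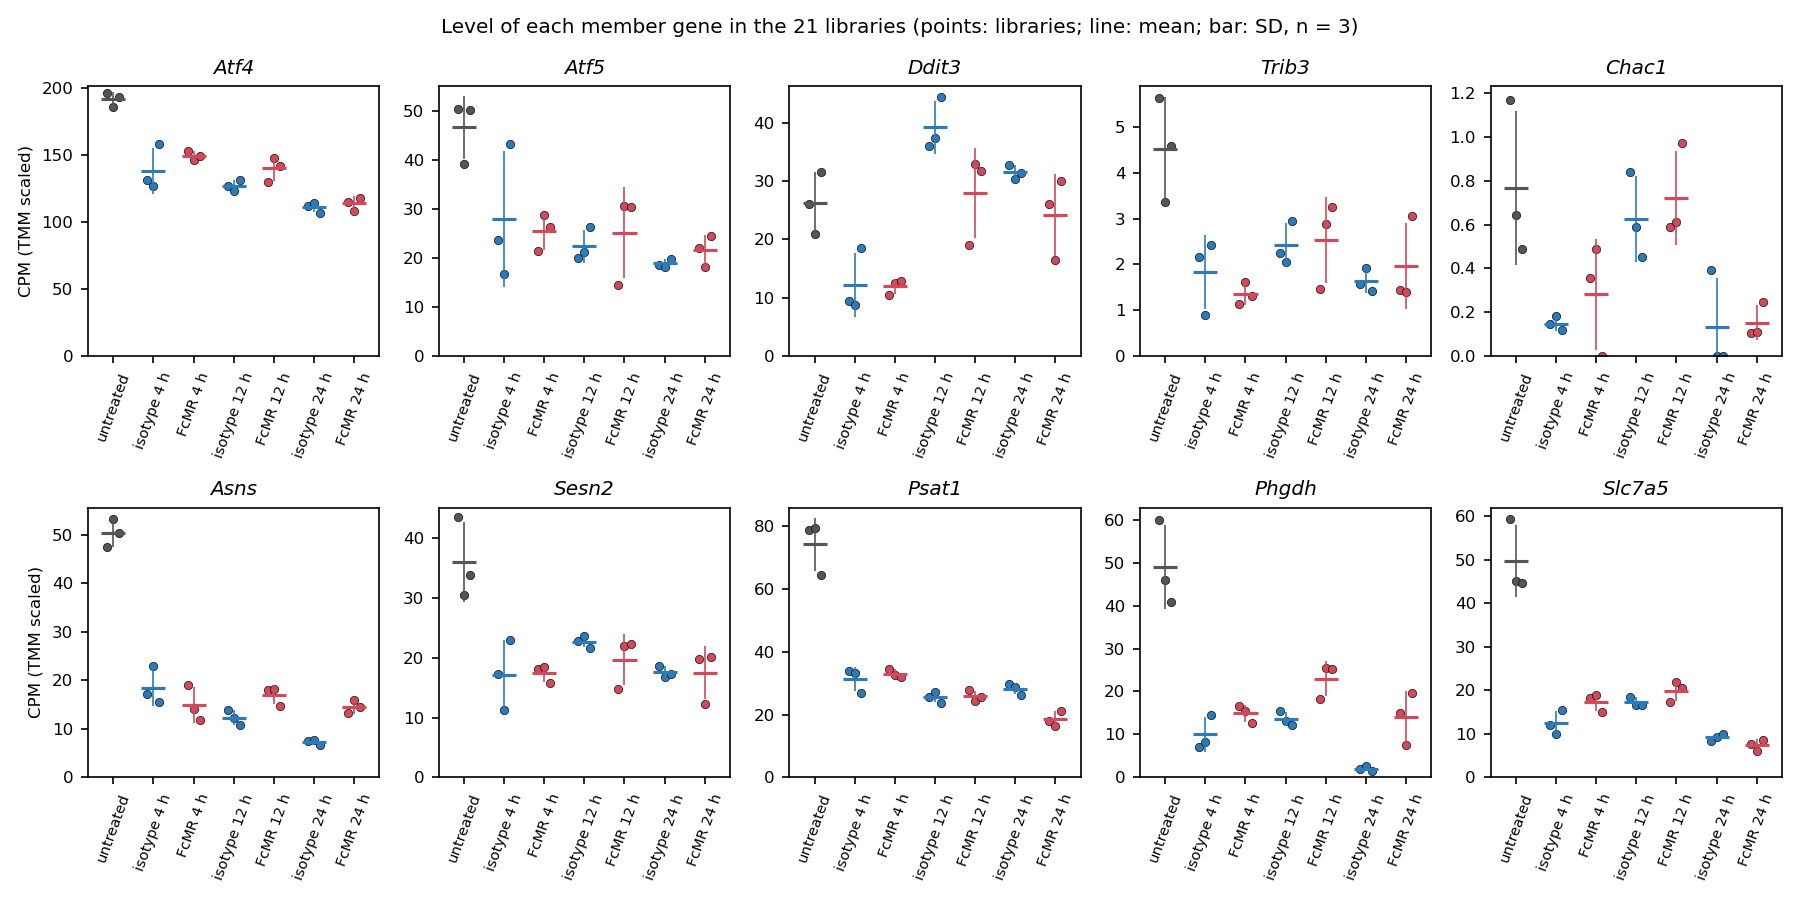
Level of each of the 10 genes in CPM (TMM scaled, linear axis from 0) in the 21 libraries, by group. Points are libraries, short lines are means and thin bars are SD over 3 libraries. Untreated libraries stand above the treated ones for Asns, Psat1, Phgdh and Slc7a5, while Ddit3 is highest in isotype 12 h at 36 to 44.4 CPM.

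Among the transcription factors, Atf4 itself (ENSMUSG00000042406.7, chr15:80255184-80257541 in GRCm38) fell from untreated cells, and no difference between FcMR and isotype passed the test. Its level was 196, 186 and 193 CPM in untreated libraries, and 131, 127 and 158 at 4 h, 127, 123 and 131 at 12 h and 112, 114 and 107 at 24 h in isotype libraries. With FcMR it was 153, 146 and 149 at 4 h, 130, 148 and 142 at 12 h and 115, 108 and 118 at 24 h. All 18 treated libraries were below all 3 untreated ones, and FcMR and isotype overlapped at each time. Isotype against untreated gave log2 changes of -0.47, -0.59 and -0.79 at 4, 12 and 24 h, each ± 0.079 (SE) (edgeR adjusted p = 0.000151, 8.78e-06 and 3.34e-07). Correcting each library for GC content left -0.19 at 4 h, no longer called (edgeR adjusted p = 0.0977, 2.47e-10 to 0.0977 over 17 alternatives). For FcMR against isotype the 95% interval of the log2 difference ran from -0.06 to 0.28 at 4 h, from -0.028 to 0.31 at 12 h and from -0.13 to 0.21 at 24 h. Without isotype 4 h replicate 3 the 4 h difference was 0.22 (edgeR adjusted p = 0.0451, range over 17 alternatives 0.0287 to 0.978). With the GC correction the 12 h difference was 0.26 (edgeR adjusted p = 0.0422, range 0.0375 to 0.544).

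Atf5, a paralogous bZIP factor whose mRNA also carries upstream reading frames, fell in a similar way. Untreated libraries held 50.4, 39.1 and 50.2 CPM, and isotype libraries 23.6, 16.8 and 43.3 at 4 h, 19.9, 21.1 and 26.2 at 12 h and 18.6, 18.1 and 19.8 at 24 h. With FcMR the levels were 21.3, 28.8 and 26.3, then 14.5, 30.6 and 30.4, then 22.1, 18.2 and 24.4. Isotype 4 h replicate 3 stood inside the untreated range, and the untreated and isotype libraries did not overlap at 12 h and 24 h. Log2 changes from untreated were -0.72 ± 0.29, -1.04 ± 0.28 and -1.30 ± 0.29 in time order (edgeR adjusted p = 0.0579, 0.00655 and 0.00144). Leaving out isotype 4 h replicate 3 moved the 4 h value to -1.20 (edgeR adjusted p = 0.00186, range over 17 alternatives 5.94e-05 to 0.9), and with the GC correction the 24 h value was -0.77. FcMR against isotype was not called for Atf5 at any time, with log2 differences of -0.14, 0.16 and 0.18. With the GC correction the 24 h difference was 0.57 (edgeR adjusted p = 0.0232, range 0.0232 to 0.869). Atf5 is rich in GC, at 62.8% of transcript bases, and Nup62 and Il4i1 overlap it on the other strand, so reads of these genes may not be told apart where exons overlap.

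Ddit3, which encodes CHOP, a C/EBP-family factor linked to stress-induced cell death, followed a course of its own. Untreated libraries held 26, 20.9 and 31.6 CPM. In isotype libraries the level was 9.48, 8.66 and 18.5 CPM at 4 h, 36, 37.3 and 44.4 at 12 h and 32.8, 30.4 and 31.4 at 24 h. With FcMR it was 10.4, 12.5 and 12.9 at 4 h, 19, 32.9 and 31.7 at 12 h and 26.1, 16.4 and 30 at 24 h. Every 4 h library was below every untreated one, and at 12 h and 24 h each FcMR library was below each isotype library. Only the change from untreated at 4 h passed the test (log2 -1.07 ± 0.28, edgeR adjusted p = 0.00563). At 12 h isotype against untreated was 0.59 ± 0.26 (edgeR adjusted p = 0.079) and was called in 6 of 17 alternatives. FcMR against isotype was -0.49 ± 0.26 at 12 h and -0.40 ± 0.26 at 24 h (edgeR adjusted p = 0.241 and 0.342), and was called in none of the 17 alternatives at either time. Mars, the methionyl-tRNA synthetase gene, overlaps Ddit3 on the other strand.

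Trib3, a pseudokinase induced by ATF4 and CHOP that restrains ATF4 activity, was low throughout. Its level was 5.64, 3.36 and 4.58 CPM untreated, 2.15, 0.902 and 2.43 in isotype 4 h, 2.24, 2.05 and 2.95 in isotype 12 h and 1.57, 1.93 and 1.42 in isotype 24 h. FcMR libraries held 1.13, 1.62 and 1.3, then 1.47, 2.88 and 3.25, then 1.44, 1.4 and 3.05 CPM, from 7 to 67 counts. All treated libraries were below the lowest untreated one. Log2 changes from untreated were -1.25 ± 0.38, -0.86 ± 0.34 and -1.44 ± 0.37 in time order (edgeR adjusted p = 0.0149, 0.0549 and 0.00439). The 4 h call was lost with only the libraries compared in the fit (edgeR adjusted p = 0.0515) and without untreated replicate 1 (-1.07) or isotype 4 h replicate 2 (-0.99), with edgeR adjusted p of 0.0627 and 0.0633 (range over 17 alternatives 0.00588 to 0.0633), and with the GC correction the value was -0.74. The FcMR difference was not called at any time, and its 95% interval at 24 h ran from -0.64 to 1.04.

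Chac1, which degrades glutathione and is a sensitive ATF4 target, was near the floor of detection. A count of 3 corresponds to 0.045 to 0.542 CPM before TMM scaling, depending on the library. Untreated libraries held 1.17, 0.644 and 0.49 CPM, isotype 12 h libraries 0.841, 0.587 and 0.454, and FcMR 12 h libraries 0.587, 0.611 and 0.971. At 4 h the isotype libraries held 0.144, 0.18 and 0.116 and the FcMR libraries 0.354, 0.489 and 0, and at 24 h these were 0.392, 0 and 0 against 0.103, 0.11 and 0.244. The 12 h libraries of both treatments lay within or near the untreated range. The 4 h and 24 h libraries were below it, but FcMR 4 h replicate 2, at 0.489 CPM, stood next to the lowest untreated library at 0.49. No test between FcMR and isotype was made for Chac1 at this depth.

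Asns, asparagine synthetase, had a lower mean at each later time in isotype cells and was 2-fold higher with FcMR than with isotype at 24 h. Untreated libraries held 47.5, 53.3 and 50.4 CPM, and isotype libraries 17.1, 22.9 and 15.6 at 4 h, 13.8, 12.3 and 10.8 at 12 h and 7.55, 7.72 and 6.57 at 24 h. With FcMR the level was 19.1, 14 and 11.9 at 4 h, 18.1, 18.2 and 14.8 at 12 h and 13.2, 15.9 and 14.5 at 24 h. The groups overlapped at 4 h, and at 12 h and 24 h every FcMR library stood above every isotype one. FcMR means were thus 15 ± 3.71, 17 ± 1.96 and 14.5 ± 1.38 CPM (SD, n = 3), while isotype means were 18.5 ± 3.85, 12.3 ± 1.5 and 7.28 ± 0.624. FcMR against isotype gave log2 differences of -0.28 ± 0.17, 0.47 ± 0.16 and 1.0 ± 0.17 in time order (edgeR adjusted p = 0.283, 0.0612 and 0.000388). Against untreated, isotype cells were at -1.45, -2.04 and -2.79 (log2), a 6.91-fold difference at 24 h (edgeR adjusted p = 8.39e-10). The 12 h FcMR difference was called in 5 of 17 alternatives, at 0.37 to 0.56 over all 17 (adjusted p 0.0233 to 0.434 by edgeR, DESeq2 or limma). On the deposited normalized table, limma gave 0.71 for the 24 h FcMR difference, not called (adjusted p = 0.0703, range over 17 alternatives 1.69e-05 to 0.0703).

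The largest FcMR difference among the members was that of Phgdh, 3-phosphoglycerate dehydrogenase, the first enzyme of serine synthesis from glycolysis. Untreated libraries held 59.9, 46 and 40.9 CPM. In isotype libraries the level was 7.04, 8.3 and 14.6 CPM at 4 h, 15.4, 13.1 and 12.3 at 12 h, and 1.86, 2.57 and 1.42 at 24 h, the last from 11 to 24 counts. With FcMR it was 16.6, 15.5 and 12.7 at 4 h, 18.2, 25.5 and 25.3 at 12 h and 15, 7.64 and 19.6 at 24 h. Isotype 24 h was the lowest group, and every FcMR library stood above every isotype library at 12 h and 24 h. FcMR against isotype gave log2 differences of 0.57 ± 0.31, 0.76 ± 0.29 and 2.80 ± 0.36 in time order, the last 6.97-fold (edgeR adjusted p = 0.223, 0.0864 and 1.61e-05). Isotype against untreated was -2.27, -1.85 and -4.63, a 24.7-fold difference at 24 h (edgeR adjusted p = 1.25e-08). Leaving out isotype 4 h replicate 3 gave 0.98 for FcMR at 4 h (edgeR adjusted p = 0.0439, range over 17 alternatives 0.0346 to 0.507). The 12 h difference was called in 5 of 17 alternatives, at 0.68 to 0.90 over all 17 (adjusted p 0.0026 to 0.243 by edgeR, DESeq2 or limma). At 24 h the FcMR difference was called in all 17 alternatives, at 2.49 to 3.13. A pseudogene, Phgdh-ps1, is annotated elsewhere, and the share of reads it could exchange with Phgdh was not tested.

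Psat1, phosphoserine aminotransferase, takes the product of PHGDH a step further, and at 24 h it was lower with FcMR than with isotype. Its level was 78.7, 79.5 and 64.6 CPM in untreated libraries, 33.9, 33.4 and 27 in isotype 4 h, 25.7, 27.1 and 23.8 in isotype 12 h and 29.8, 28.7 and 26.4 in isotype 24 h. FcMR libraries held 34.6, 32.7 and 31.9 CPM at 4 h, 27.8, 24.3 and 25.7 at 12 h and 18, 16.5 and 21.2 at 24 h. FcMR and isotype overlapped at 4 h and 12 h, and at 24 h all FcMR libraries were below all isotype ones. The FcMR difference was 0.078 ± 0.11, 0.026 ± 0.11 and -0.62 ± 0.12 (edgeR adjusted p = 0.715, 0.936 and 0.000712), and the 24 h call held in all 17 alternatives, at -0.72 to -0.53. From untreated, isotype cells fell by 1.24, 1.54 and 1.39 on the log2 scale (edgeR adjusted p = 1.21e-07, 5.33e-09 and 2.27e-08). From 12 h to 24 h, mean FcMR levels went from 23 to 14.1 CPM for Phgdh and from 25.9 to 18.6 for Psat1. Isotype means went from 13.6 to 1.95 CPM for Phgdh and from 25.6 to 28.3 for Psat1.

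Slc7a5 encodes LAT1, the exchanger that imports leucine and other large neutral amino acids. Untreated libraries held 59.3, 45.1 and 44.7 CPM, and isotype libraries 12.1, 9.92 and 15.5, then 18.5, 16.7 and 16.6, then 8.24, 9.22 and 10. FcMR libraries held 18.2, 19 and 15.1 at 4 h, 17.2, 22 and 20.6 at 12 h and 7.71, 6.06 and 8.53 at 24 h. Treated libraries were all far below untreated ones, and FcMR and isotype overlapped at each time. Isotype cells stood at -1.98, -1.52 and -2.44 against untreated (edgeR adjusted p = 5.29e-08, 6.12e-07 and 3.42e-09). FcMR against isotype gave log2 differences of 0.48 ± 0.17, 0.21 ± 0.16 and -0.32 ± 0.18 in time order (edgeR adjusted p = 0.0614, 0.485 and 0.24). The 4 h difference was called in 8 of 17 alternatives, at 0.38 to 0.68 over all 17, among them the fits without isotype 4 h replicate 3 (0.68) and without FcMR 4 h replicate 3 (0.62), with edgeR adjusted p of 0.0128 and 0.0237 (range 0.0074 to 0.206).

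Sesn2, sestrin 2, a leucine-binding inhibitor of mTORC1 that ATF4 induces, fell from untreated and did not separate FcMR from isotype. Its level was 43.5, 30.5 and 33.9 CPM untreated, 17.2, 11.2 and 22.9 in isotype 4 h, 22.8, 23.6 and 21.7 in isotype 12 h and 18.7, 16.8 and 17.2 in isotype 24 h. With FcMR it was 18.1, 18.5 and 15.7, then 14.8, 21.9 and 22.3, then 19.8, 12.3 and 20.2. All treated libraries were below the lowest untreated one. Log2 changes from untreated were -1.05 ± 0.23, -0.66 ± 0.22 and -1.03 ± 0.23 in time order (edgeR adjusted p = 0.00142, 0.0216 and 0.00125). The 12 h call ended without untreated replicate 1 (-0.50), isotype 12 h replicate 1 (-0.64) or isotype 12 h replicate 3 (-0.61), with edgeR adjusted p of 0.111, 0.0592 and 0.0766 (range over 17 alternatives 6.75e-09 to 0.111), and the 4 h value was -0.59 with the GC correction. The 95% interval of the FcMR difference ran from -0.47 to 0.51 at 4 h, from -0.68 to 0.27 at 12 h and from -0.52 to 0.46 at 24 h.

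**Figure D2:**
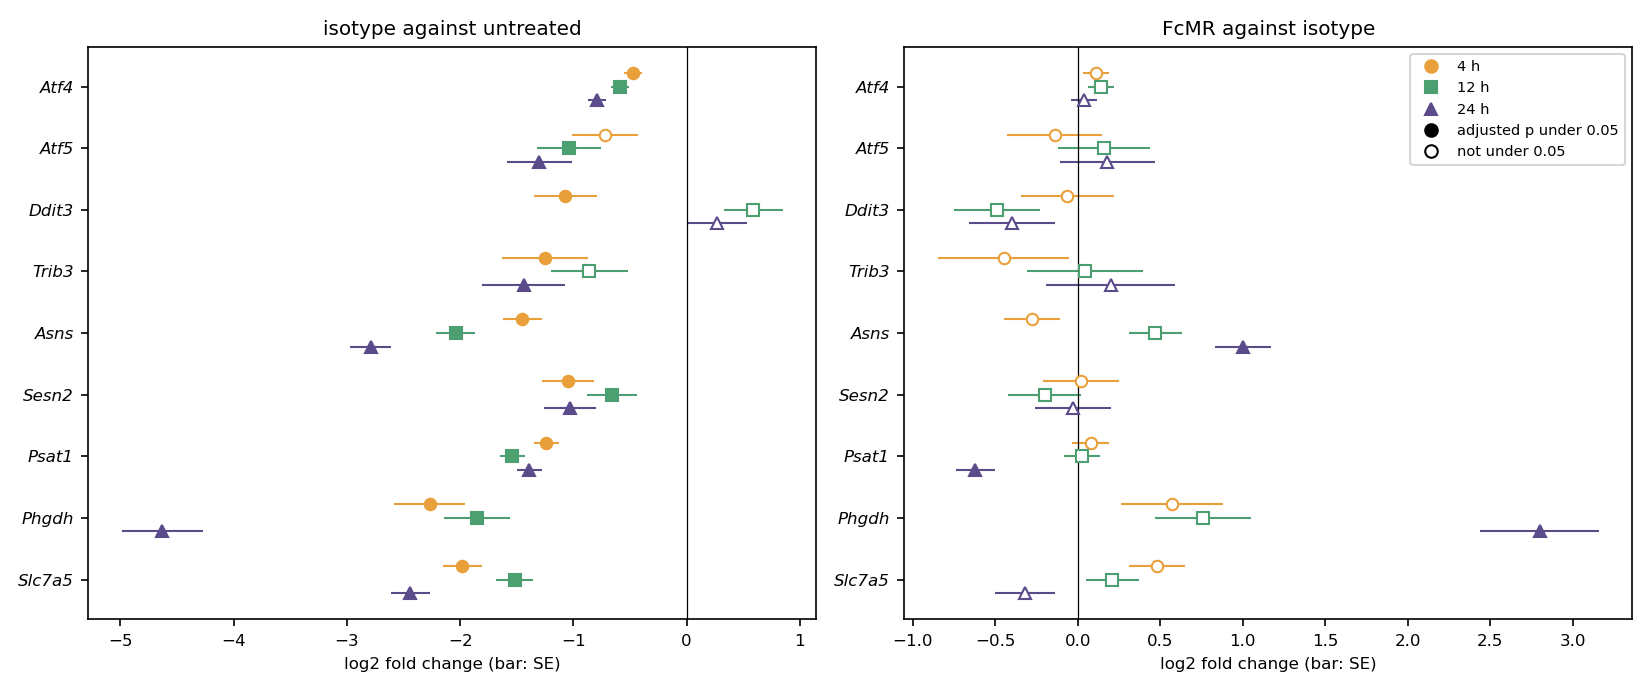
Log2 fold change of the 9 tested genes, isotype against untreated on the left and FcMR against isotype on the right, at 4 h (circles), 12 h (squares) and 24 h (triangles), with SE bars; filled symbols passed the edgeR test. Filled symbols on the left are all below 0, and on the right only Asns (1.0), Phgdh (2.80) and Psat1 (-0.62) at 24 h are filled; the 2 axes differ in range.

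Whether the FcMR effect differed between the 3 times was tested jointly, and 3 of the 9 genes passed, beside 11% of all genes tested (6.24% with a higher and 4.78% with a lower effect at 24 h than at 4 h). These were Asns, Psat1 and Phgdh. The effect at 24 h minus that at 4 h was 1.28 for Asns, -0.70 for Psat1 and 2.23 for Phgdh on the log2 scale (edgeR adjusted p = 0.00578, 0.0122 and 0.00791). The Asns call was lost on the deposited normalized table (1.07, limma adjusted p = 0.159, range over 29 alternatives 0.0012 to 0.159). The Phgdh call was lost with limma voom (1.91, adjusted p = 0.0916, range 8.92e-05 to 0.0916). For Psat1 it was lost on the deposited normalized table and without FcMR 24 h replicate 1 (-0.69), isotype 24 h replicate 1 (-0.66) or isotype 24 h replicate 2 (-0.69), with edgeR adjusted p of 0.0527, 0.061 and 0.051 for the 3 libraries (range 0.00151 to 0.0916). Slc7a5 went from 0.48 at 4 h to -0.32 at 24 h, a difference of -0.80 that did not pass (edgeR adjusted p = 0.0932). It was called in 7 of 29 alternatives, at -1.0 to -0.53 over all 29 (adjusted p 0.0165 to 0.21), among them DESeq2 (-0.90), the GC correction (-0.54) and the fits without isotype 4 h replicate 3 (-0.99), FcMR 4 h replicate 3 (-0.95) or FcMR 24 h replicate 3 (-0.93).

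Markers of other cell types moved over the same hours. The 10 granulocyte markers, among them S100a8, Elane and Mpo, summed to 1412 to 1641 CPM in untreated libraries, 1019 to 1362 in isotype 4 h, 297 to 385 in isotype 12 h and 186 to 221 in isotype 24 h. In FcMR libraries the sums were 998 to 1184, 317 to 540 and 206 to 230, and Elane was at 0 in FcMR 24 h. Of the 10, 7, 10 and 10 were called lower in isotype than in untreated cells at 4, 12 and 24 h. The 5 mast cell and basophil markers measured summed to 35.3 to 44.4 CPM untreated, 26.2 to 41.5 in isotype 4 h, 12.4 to 16.8 in isotype 12 h and 7.18 to 9.02 in isotype 24 h, and 5 of 5 were called lower at 12 h and at 24 h. Their part in the decline of the members was not tested. In RNA from a whole culture, fewer cells of a type and less RNA per cell cannot be told apart.

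Between FcMR and isotype at 24 h, the granulocyte sums were close, 206 to 230 against 186 to 221 CPM, although Ngp and Ltf were called lower and S100a8 higher. Single genes differed more than the sums: 8 of the 10 were lower with FcMR and 2 higher. Their median log2 difference was -0.94, beside 0.0064 over all genes. Dendritic cell markers, 7 in all, summed to 714 to 764 CPM with FcMR and 422 to 488 with isotype, with 2 called higher and 5 not called. Although the sum was higher, 4 of these 7 were lower with FcMR and 3 higher, at a median log2 difference of -0.30. Of the 10 macrophage markers, 5 were called lower and 1 higher. The 6 stromal markers summed to 7.94 to 11 CPM with FcMR and 0.901 to 1.37 with isotype, where Col1a2 and Col3a1 were at 0. Of the 3 tested, Dcn and Pdgfrb were called higher with FcMR (edgeR adjusted p = 0.000288 and 3.03e-07), and Col1a1 was not called. The part of these differences in the Asns, Phgdh and Psat1 results was not tested.

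The wider pathway was read from 6 lists that do not include the members. Of all genes tested, 35.6%, 41.6% and 42.2% were called for isotype against untreated at 4, 12 and 24 h. The shares were 17.7%, 16.1% and 20.9% for FcMR against isotype. Enzymes of serine, glycine, one-carbon, proline and transsulphuration metabolism also fell from untreated in most cases: 8, 8 and 9 of 13 were called lower in isotype cells at 4, 12 and 24 h and 1, 3 and 2 higher, with medians of -1.01, -0.75 and -0.82. FcMR against isotype gave 1 higher and none lower at 4 h, 1 higher and 2 lower at 12 h and 1 higher and none lower at 24 h. The gene called higher at all 3 times was Mthfd2, the mitochondrial methylene-tetrahydrofolate dehydrogenase, at 0.32, 0.26 and 0.38. At 24 h it stood at 130, 119 and 126 CPM with FcMR and 92.6, 109 and 87.1 with isotype, without overlap (edgeR adjusted p = 0.0044). The 4 h call was lost without FcMR replicate 1, FcMR replicate 2 or isotype replicate 1 (edgeR adjusted p 0.0685 to 0.134) and the 12 h call without any 1 of the 6 libraries compared (0.0933 to 0.198). The 24 h call was lost when the fit held only the 6 libraries compared (0.0635). Pck2, mitochondrial PEP carboxykinase, and Gpt2, an alanine transaminase, were lower at 12 h, at -0.85 and -0.38. The Pck2 call was lost without FcMR replicate 1, isotype replicate 2 or isotype replicate 3 (edgeR adjusted p 0.0514 to 0.118). The Gpt2 call was lost without any 1 library except isotype replicate 2 (edgeR adjusted p 0.0523 to 0.0929).

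**Figure D3:**
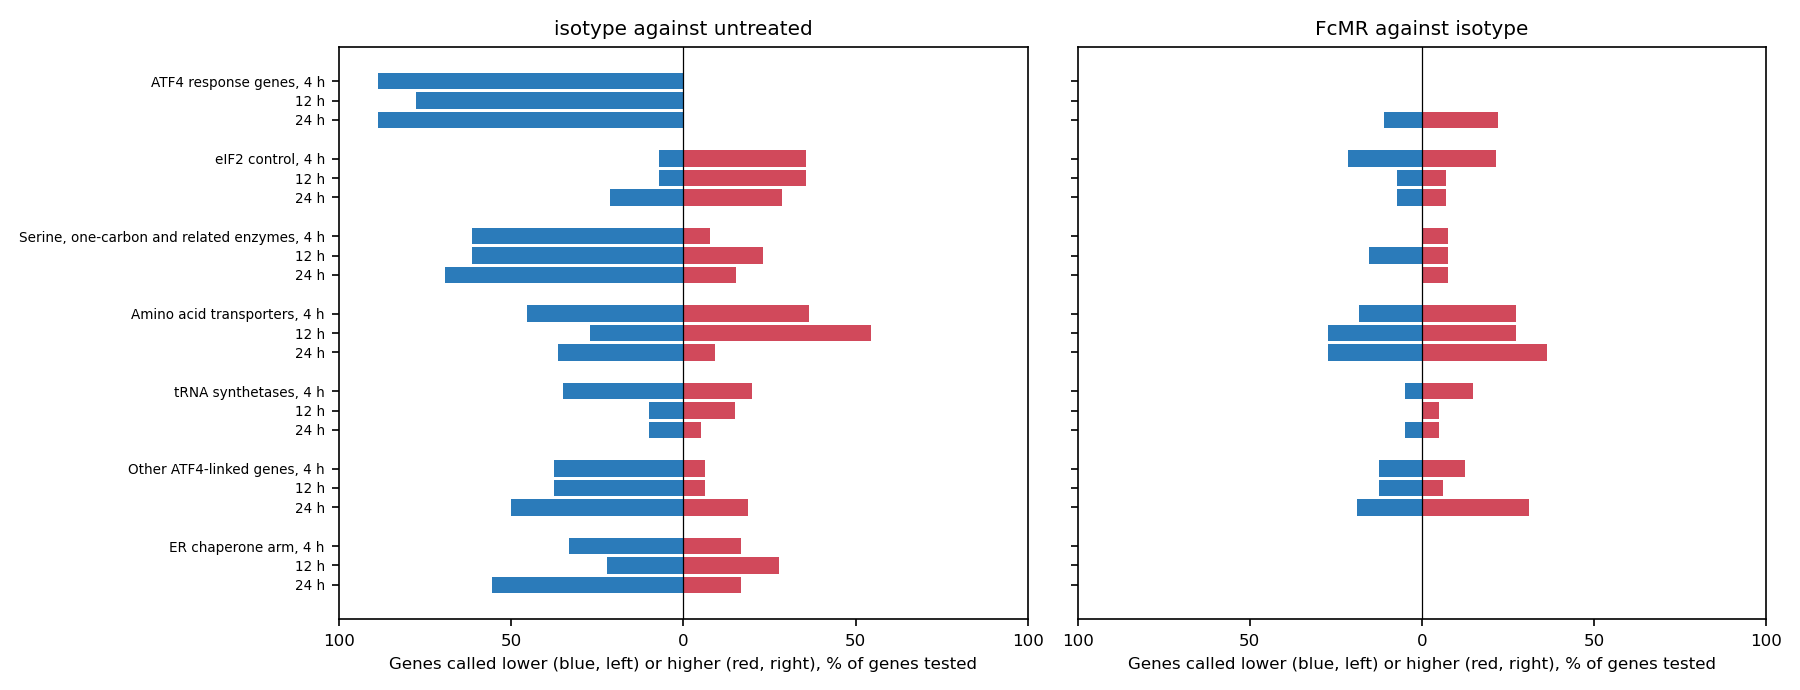
Share of tested genes called lower (blue, to the left) or higher (red, to the right) in percent, by gene list and time, for isotype against untreated (left) and FcMR against isotype (right). The ATF4 response genes, 9 tested, and the serine and one-carbon enzymes, 13 tested, lean to the left in the left panel, and the ER chaperone list has no bar in the right panel.

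Amino acid transporters went both ways, and Slc7a2 had the largest FcMR difference of the pathway genes named here. Of 11 tested, 3, 3 and 4 were called higher with FcMR and 2, 3 and 3 lower. Over all genes tested, 8.62%, 8.61% and 11.4% were higher and 9.13%, 7.49% and 9.44% lower. Slc7a2, a transporter of arginine and other cationic amino acids, was higher with FcMR than with isotype at each time. FcMR libraries held 3440, 3703 and 4149 CPM against 1678, 1756 and 1608 at 4 h. At 12 h they held 3145, 2876 and 3006 against 660, 710 and 733. At 24 h the levels were 1960, 2376 and 1931 against 197, 203 and 259. Mean levels were lower at each later time in both treatments, at 3764, 3009 and 2089 CPM with FcMR and 1681, 701 and 220 with isotype. The groups were far apart at each time, with log2 differences of 1.16, 2.10 and 3.25 (edgeR adjusted p = 1.21e-06, 1.15e-09 and 3.69e-12), called in all alternatives. Slc7a11, the cystine importer xCT and a shared target of ATF4 and NRF2, was higher with FcMR by 0.73, 0.61 and 0.93. Its calls too held in all alternatives. Mean levels were 2434 ± 216, 1424 ± 156 and 1337 ± 253 CPM with FcMR and 1464 ± 152, 932 ± 87 and 704 ± 49.8 with isotype. Slc6a9, a glycine transporter, was higher at 24 h (1.78, 9.63 ± 2.98 against 2.77 ± 0.281 CPM, edgeR adjusted p = 0.00404), a call lost on the deposited normalized table (limma adjusted p = 0.0999). Others were lower. Slc36a1, a lysosomal amino acid transporter, was at -0.90, -0.39 and -0.55, and Slc1a5, the glutamine transporter ASCT2, was at -0.65 at 12 h. The 12 h call of Slc36a1 was lost without FcMR replicate 1, isotype replicate 1 or isotype replicate 3 (edgeR adjusted p 0.0595 to 0.0856) and with the GC correction.

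Upstream of ATF4, 14 genes of eIF2 and its control were read, among them kinases, phosphatase subunits and subunits of the eIF2 exchange factor. Of these, 3 were called higher and 3 lower with FcMR than with isotype at 4 h, beside 1 each way at both later times. At 4, 12 and 24 h, 17.7%, 16.1% and 20.9% of all genes tested were called. Ppp1r15a, which encodes GADD34, the inducible subunit that directs eIF2 dephosphorylation, held 165, 197 and 174 CPM with FcMR and 83.7, 51 and 112 with isotype at 4 h. That was a log2 difference of 1.11 without overlap (edgeR adjusted p = 0.00111), lost when the fit held only the 6 libraries compared (0.0506). Ppp1r15b, its constitutive counterpart, was at 263 ± 13.7 against 170 ± 11.2 CPM at 4 h (0.63, edgeR adjusted p = 0.000164). At 12 h it was at 0.29, a call lost without any 1 library except FcMR replicate 3 (edgeR adjusted p 0.0655 to 0.257). Impact, an inhibitor of the amino acid sensor GCN2, was lower at 4 h, at 31.2, 30.4 and 27 against 51, 56.8 and 39 CPM (-0.72, edgeR adjusted p = 0.00358). Eif2ak3, the ER stress kinase PERK, was lower at each time (-0.44, -0.44 and -0.30). Its 24 h call was lost without FcMR replicate 2 or 3 or isotype replicate 1 or 3 (edgeR adjusted p 0.0754 to 0.138), and all 3 calls were lost under at least 1 of the other 11 alternatives. Eif2ak1, the haem-regulated kinase HRI, was higher at 24 h (0.35, edgeR adjusted p = 0.00764), a call that ended without isotype replicate 3 (0.0501).

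Other ATF4-linked stress genes went both ways under FcMR, with 2, 1 and 5 of 16 called higher and 2, 2 and 3 lower at 4, 12 and 24 h. Over all genes tested, 8.62%, 8.61% and 11.4% were higher and 9.13%, 7.49% and 9.44% lower. Nupr1, a small chromatin-associated stress protein, was higher with FcMR than with isotype at each time. Its levels were 26.9 ± 1.24, 26.9 ± 0.93 and 19.8 ± 2.36 CPM against 12.7 ± 3.35, 10.4 ± 1.25 and 7.42 ± 0.911. Its log2 differences of 1.07, 1.37 and 1.41 were called in all alternatives (edgeR adjusted p = 0.000118, 5.11e-06 and 4.19e-06). Ddit4, which encodes the mTORC1 inhibitor REDD1, was at 12.4, 14.6 and 20.6 against 5.98, 6.54 and 5.54 CPM at 24 h (1.39, edgeR adjusted p = 0.00314). Sesn1, a paralogue of Sesn2 regulated by p53 and FOXO factors, was lower by 1.36 at 4 h and 1.10 at 24 h on the log2 scale, from 11.2 ± 1.08 to 4.39 ± 0.476 and from 25.9 ± 3.73 to 12.1 ± 1.01 CPM. Its 12 h call (-0.47) was lost without FcMR replicate 3, isotype replicate 1 or isotype replicate 3 (edgeR adjusted p 0.0812 to 0.125). Atf3, a stress-induced repressor, was lower at 12 h and 24 h (-0.45 and -0.51). Jdp2, a bZIP repressor, was higher at 4 h (1.11), but isotype replicate 3 was at 20.7 CPM beside 7.47 and 7.04. The Jdp2 call ended without FcMR replicate 1 or 2 or isotype replicate 1 or 2 (edgeR adjusted p 0.0711 to 0.129), and without isotype replicate 3 the value was 1.84.

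**Figure D4:**
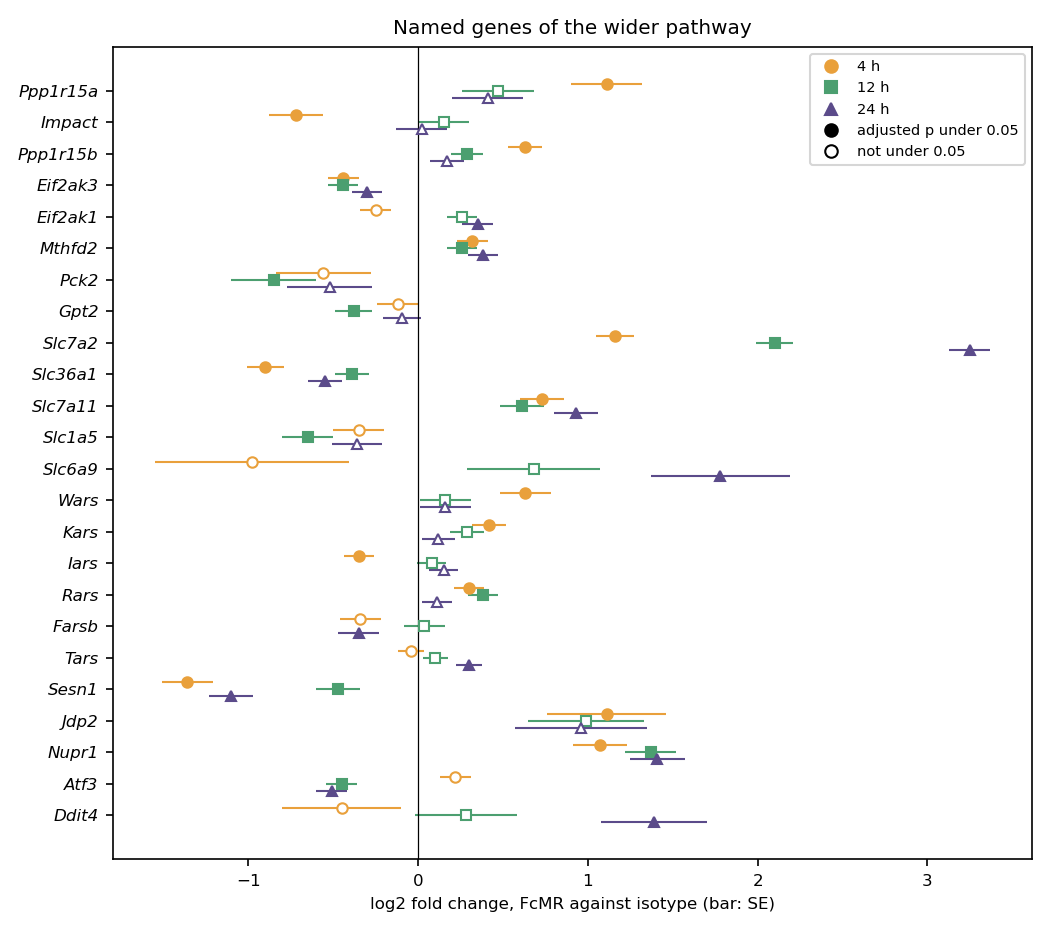
Log2 fold change of 24 named pathway genes, FcMR against isotype, at 4 h (circles), 12 h (squares) and 24 h (triangles), with SE bars; filled symbols passed the edgeR test. The Slc7a2 difference widens from 1.16 to 3.25, and at each time Nupr1 and Slc7a11 stand above 0 and Sesn1 below 0.

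Cytosolic aminoacyl-tRNA synthetases, which charge tRNAs and include many ATF4 targets, were read at the same times. Of 20 tested, 3 were called higher and 1 lower with FcMR than with isotype at 4 h. At 12 h 1 was called higher, and at 24 h 1 was called higher and 1 lower. Beside these, 17.7%, 16.1% and 20.9% of all genes were called. No named difference exceeded 0.63 on the log2 scale. Wars and Kars were higher at 4 h (0.63 and 0.42, edgeR adjusted p = 0.00856 and 0.00942), calls lost when the fit held only the 6 libraries compared (0.0701 and 0.0727). Rars was higher at 4 h and 12 h (0.30 and 0.38) and Tars at 24 h (0.30), while Iars was lower at 4 h (-0.35) and Farsb at 24 h (-0.35). The 4 h call of Rars was lost without FcMR replicate 1 or 2 or isotype replicate 1 or 3 (edgeR adjusted p 0.0796 to 0.102), and that of Iars without FcMR replicate 1, FcMR replicate 2 or isotype replicate 2 (0.0534 to 0.128). The Farsb call was lost without any 1 of the 6 libraries compared (edgeR adjusted p 0.0802 to 0.186), and those of Tars and of Rars at 12 h were lost with the GC correction.

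The ER chaperone arm of the unfolded protein response, run by ATF6 and XBP1, was examined as a second stress branch. For FcMR against isotype, edgeR called 17.7%, 16.1% and 20.9% of all genes tested at 4, 12 and 24 h. It called none of the 18 genes of this arm at these times, with 3, 0 and 6 at an unadjusted p under 0.05. DESeq2 called 0, 0 and 1, limma voom 0, 0 and 1, and limma on the deposited normalized table none. With the GC correction the counts were 2, 0 and 3, and without isotype 4 h replicate 3 the 4 h count was 2. Without that library and FcMR 12 h replicate 1 the counts were 2, 0 and 3. The medians for FcMR against isotype were -0.042, 0.035 and 0.13. From untreated to isotype cells, edgeR called 3, 5 and 3 of the 18 higher and 6, 4 and 10 lower at 4, 12 and 24 h. Over all genes tested, 20.4%, 22% and 21.3% were higher and 15.2%, 19.6% and 20.9% lower. The medians of the 18 in that comparison were -0.01, 0.032 and -0.30.

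Across the 21 libraries, the member whose log2 level followed Atf4 most closely was Slc7a5 (Pearson r = 0.92), and Slc7a5 was likewise nearest to Atf4. Trib3 and Sesn2 were nearest to each other (0.879), Phgdh was nearest to Asns (0.816), Asns to Atf4 (0.83), Psat1 to Slc7a5 (0.829) and Atf5 to Atf4 (0.851). Ddit3 stood apart: its closest member was Trib3 (0.536), and it was the least like member for Atf4 (-0.118), Asns (-0.205) and Psat1 (-0.121). Outside the list, the genes most like Atf4 were Kdm6b (0.957) and Cyth3 (0.95), those most like Asns were Specc1l (0.961) and Dyrk1a (0.94), and those most like Phgdh were Adra2a (0.909) and Prkce (0.9). For Ddit3 these were Rhov and Rbfa (both 0.967), and for Psat1 Cd6 (0.954) and Vrk1 (0.943). Trib3 was most like Sema4b (0.936) and Map2k7 (0.935), and Sesn2 most like Eipr1 (0.951) and Evi5l (0.947). These values are descriptions over libraries that share groups, depth and GC tilt, and the large step between untreated and treated cells enters each of them.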

How the data were processed

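RNA was sequenced as 75 bp single-end reads. Per the submitters' processing notes, the authors used CASAVA 1.8.2, kallisto 0.44.0 and DESeq2 with mm10/GRCm38; roles and annotation are not given in the sources used here. The deposited raw table holds whole-number estimated counts for 23250 genes, and the deposited normalized signal equals them divided by a factor per gene and library. Rounding changed no value. Whether counting used strand is not stated.

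Identifiers were matched without version to GENCODE M21 (GRCm38): 23206 gained a symbol, 21250 also matching in version. Groups and replicate numbers come from sample titles. Differences were tested in R 4.3.3 by the quasi-likelihood method of edgeR 4.0.16, fitted to all 21 libraries with TMM scaling, filterByExpr (minimum count 10; 13468 genes kept) and Benjamini-Hochberg adjustment over all genes, called under 0.05. It was tested on simulated counts with the same spread setting for all genes and changes in FcMR 4 h only. The simulated libraries had no GC differences, so that test does not cover those seen here. Replicates of a group correlated at r = 0.92 to 0.987, and their counts differed by more than sampling noise in all 21 pairs (lowest chi-square per df 3.03). Each library counted as 1 sample. The excess over sampling noise may be technical and cannot show whether libraries came from separate mice or cultures. Intervals at 95% use the t distribution with 14 df. Floors of 3 counts cover counting error only, as reads carry no molecular identifiers.

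The members and gene lists were chosen with earlier results of these data known. The rule for named genes takes all members, the 3 called genes of largest fold change per list and FcMR comparison, and for each member the most correlated member and 2 other genes. A window around the start of each gene was read from RefSeq promoters. Alternatives were RLE factors, DESeq2 1.42.0, limma 3.58.1 (voom, and log2(value + 1) of the normalized table), 2 other filters, the compared libraries alone, a replicate block, GC correction by loess, and leaving out libraries; the block combined with GC correction was added after seeing the data. Cbs, Fgf21, Ncr1 and Mcpt4 were not analysed here.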

Additional observations from a re-analysis of the deposited data

Results flagged for a closer look

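Of the 9 tested ATF4 response genes and the 24 named pathway genes, 11 are listed because the FcMR effect differed between 4, 12 and 24 h in a joint edgeR test adjusted over all 13468 genes, in which 1484 genes were called. Values are the log2 effect at 24 h minus that at 4 h. Among the ATF4 response genes they were 1.28 for Asns, 2.23 for Phgdh and -0.70 for Psat1.

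Slc7a2 had 2.09 (edgeR adjusted p = 7.31e-07), called in all 29 alternatives. Atf3 had -0.73 (edgeR adjusted p = 0.00133), also called in all 29, its effect being 0.22 at 4 h and -0.51 at 24 h. Eif2ak1 had 0.60 (edgeR adjusted p = 0.00782), and the call was lost without FcMR 4 h replicate 3 (0.0887). Sesn1 had 0.26 (edgeR adjusted p = 0.0127), with the smallest effect at 12 h, and it was lost without FcMR 12 h replicate 2 or isotype 12 h replicate 2 (0.0509 and 0.05). For Impact, Slc6a9, Iars and Ddit4 the values were 0.74, 2.77, 0.51 and 1.84 (edgeR adjusted p = 0.0243, 0.041, 0.0215 and 0.0347). These 4 were lost in 10, 11, 14 and 9 of the 18 fits without a library, with edgeR adjusted p up to 0.135, 0.117, 0.103 and 0.0836.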

How the results depend on the processing

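Over 1179 alternatives for the 9 tested ATF4 response genes, 1108 kept their side of the threshold, 56 gained a call and 15 lost one. No called value changed sign, and 48 of the 1108 changed sign with neither value called. For the other named genes 226 of 3143 lost a call, and 1 value changed sign on gaining a call: the Slc7a11 effect at 24 h minus 4 h, 0.19 and not called, was -0.034 under the replicate block with GC correction.

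The FcMR members called at 4 h went from 0 to 1 with RLE factors, DESeq2, no low-count filter, GC correction, or the replicate block with GC correction, and to 3 without both libraries out of title order. At 12 h they went from 0 to 1 with DESeq2, the compared libraries alone, the replicate block, or without both libraries out of title order, to 2 with voom, and to 4 with GC correction with or without the block. Over time they went from 3 to 1 on the deposited normalized table. Without single libraries the members called numbered 0 to 3, 0 and 3 for FcMR, 7 to 9, 6 to 8 and 8 for isotype against untreated, and 2 to 4 over time.

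Over all genes, the 4 h FcMR count of 2390 became 868 with the compared libraries alone, 3625 with the block and GC correction, 3898 without both libraries out of title order, and 1589 to 3151 without single libraries. The 12 h count of 2169 became 3268 with the block and GC correction, and isotype against untreated at 4 h went from 4792 to 2881 with the compared libraries alone. The count over time of 1484 became 925 without the filter, 2608 with GC correction, 2834 with the block added, 2616 without both libraries out of title order, and 973 to 2294 without single libraries. With RLE factors, 1412 genes were called higher and 839 lower for FcMR at 4 h, against 1161 and 1229 with TMM, and over time 587 and 780 were called, against 840 and 644. The deposited normalized table moved the all-gene median at 4 h from -0.073 to 0.036 (1315 higher, 666 lower), and that over time from 0.077 to -0.045 (394 higher, 646 lower). The cause of these shifts was not tested.

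Replicate numbers share no stated origin. Libraries of the same number had deviations from their group means that correlated, on average, at -0.0708, 0.106 and 0.0138 for FcMR and isotype at 4, 12 and 24 h, so the replicate block was kept as an alternative only. Depth limits Chac1, Trib3 and, in isotype 24 h, Phgdh at 11 to 24 counts. It also limits Slc6a9 at 4 h, with 4, 19 and 5 counts in FcMR and 5, 5 and 16 in isotype libraries. These counts enter the Slc6a9 value of 2.77 for 24 h minus 4 h.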

Other observations

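Several pathway genes rose in isotype cells relative to untreated cells while most ATF4 response genes fell. Of the 20 synthetases, 4, 3 and 1 were called higher and 7, 2 and 2 lower at 4, 12 and 24 h. Of the 16 other ATF4-linked genes, 1, 1 and 3 were called higher and 6, 6 and 8 lower. Over all genes tested, 20.4%, 22% and 21.3% were higher and 15.2%, 19.6% and 20.9% lower. Mthfd2 went from 45.3 ± 2.66 CPM untreated to 83.2 ± 2.47, 101 ± 4.11 and 96.1 ± 11.1 at 4, 12 and 24 h, log2 changes of 0.88, 1.16 and 1.08 (edgeR adjusted p = 5.41e-07, 1.1e-08 and 2.85e-08). Atf3 went from 269 ± 15.4 CPM to 456 ± 46.3, 458 ± 35.2 and 461 ± 8.01, with changes of 0.76, 0.77 and 0.78. Farsb, a subunit of phenylalanyl-tRNA synthetase, was higher by 0.61, 0.57 and 1.0. Each of these calls held in all 17 alternatives. Gpt2 was higher at 12 h and 24 h (0.87 and 1.04), as was Slc36a1 (0.55 and 1.14).

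Others shared the fall. Pck2 went from 16.2 ± 4.49 CPM to 4.17 ± 1.11, 6.67 ± 1.52 and 6.97 ± 0.705, with log2 changes of -1.94, -1.31 and -1.22 (edgeR adjusted p = 1.23e-05, 0.000268 and 0.000581). Eif2ak3 was lower by 0.96, 0.53 and 0.60 on the log2 scale. Slc7a2 was higher at 4 h (1.45) and lower at 24 h (-1.48), at 614 ± 38.5 CPM untreated and 220 ± 34.4 in isotype 24 h. The marker sums given for granulocytes and mast cells changed over the same hours, and their part in these values was not tested.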
